A study of Mus musculus with 18 samples.

Results

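Periportal and pericentral hepatocytes of C57BL/6J mice were compared after 8 h without food. The comparison rests on 6 of the 18 RNA-seq libraries of the series, 3 labelled periportal and 3 labelled pericentral, chosen by their column labels alone. The animals were wild-type males aged 12 weeks on normal chow, and both zones share that genotype and treatment. Mice had been trained for 3 days to fast overnight for 16 h and feed for 8 h, and on the day of the experiment had 4 h of food with 20% sucrose in the water. The fed group was killed then, at clock hour 13, while food and sucrose were taken from the others, which were killed 8 h later (hour 21) or 24 h later (hour 13). Hour and length of fast therefore cannot be told apart when 8 h is set beside the other states. The zones were separated with digitonin, a detergent that, perfused through one vessel, permeabilizes the hepatocytes nearest to it so that cells of the other zone can be collected. The labels do not say how many mice gave the 3 libraries of a zone, or whether libraries with the same number came from one mouse. The p-values therefore measure only spread between libraries, estimated with all 18 libraries of the series fitted together. Of 28030 genes in the count table, 12477 had enough counts to test.

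In the liver lobule, blood flows from the portal triad to the central vein, and hepatocytes along this path divide the work. Periportal cells, supplied with oxygen and nutrients, are known for gluconeogenesis, the urea cycle, amino acid breakdown and the secretion of plasma proteins. Pericentral cells are known for glutamine synthesis, bile acid synthesis and drug metabolism, and much of their program is set by Wnt ligands from central vein endothelium, which act through beta-catenin and TCF/LEF factors. Fasting raises glucagon, which drives glucose output, while the fall of insulin releases fatty acids for oxidation.

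Sequences upstream of 5 genes are shown because they hold the core TCF/LEF letters CTTTGAT or the reverse complement ATCAAAG, in capitals, in 3 genes that were higher pericentrally (Sp5, Slc1a2, Lect2) and in 2 that were higher periportally (Hal, G6pc). Each is the 250 bases before the RefSeq start site (GRCm38.p6), written 5′ to 3′ in the direction of the gene. The Slc1a2 window lies at an internal RefSeq start, within the span of the gene that GENCODE gives, chr2:102658659-102790784, and not before the gene's first base.
Sp5, chr2:70474673-70474922, plus strand: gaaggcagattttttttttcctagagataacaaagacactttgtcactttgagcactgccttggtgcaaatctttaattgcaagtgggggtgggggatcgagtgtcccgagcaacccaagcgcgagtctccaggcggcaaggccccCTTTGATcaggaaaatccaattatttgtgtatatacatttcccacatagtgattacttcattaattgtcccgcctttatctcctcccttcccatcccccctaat
Slc1a2, chr2:102706188-102706437, plus strand: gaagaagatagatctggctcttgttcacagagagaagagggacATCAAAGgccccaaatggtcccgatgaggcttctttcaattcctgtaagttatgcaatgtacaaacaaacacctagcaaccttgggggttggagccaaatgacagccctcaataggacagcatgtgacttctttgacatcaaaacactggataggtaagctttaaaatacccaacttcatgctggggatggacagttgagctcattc
Lect2, chr13:56548539-56548788, minus strand: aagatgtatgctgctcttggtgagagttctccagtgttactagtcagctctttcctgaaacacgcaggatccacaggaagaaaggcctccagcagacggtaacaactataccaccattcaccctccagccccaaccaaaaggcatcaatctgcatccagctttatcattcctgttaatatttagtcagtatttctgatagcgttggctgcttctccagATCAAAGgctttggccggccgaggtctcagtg
Hal, chr10:93488518-93488767, plus strand: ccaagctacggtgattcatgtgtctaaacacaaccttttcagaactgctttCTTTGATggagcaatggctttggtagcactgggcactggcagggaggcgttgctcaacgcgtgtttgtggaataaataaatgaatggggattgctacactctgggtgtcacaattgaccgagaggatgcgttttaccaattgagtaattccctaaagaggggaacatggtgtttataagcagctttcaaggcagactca
G6pc, chr11:101367466-101367715, plus strand: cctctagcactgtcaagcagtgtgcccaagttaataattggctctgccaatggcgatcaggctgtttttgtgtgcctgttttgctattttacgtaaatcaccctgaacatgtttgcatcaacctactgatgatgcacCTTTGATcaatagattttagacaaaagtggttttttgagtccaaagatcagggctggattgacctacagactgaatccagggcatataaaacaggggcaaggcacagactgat

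The first base of the match lay 104 bases before the start in Sp5, a Wnt-induced repressor. It lay 207 bases before it in Slc1a2, a glutamate transporter, and 32 bases before it in Lect2, a secreted protein. In Hal, histidine ammonia-lyase, the distance was 199 bases, and in G6pc, glucose-6-phosphatase, 113 bases. Over windows from 250 bases before to 50 after each start, on both strands, 3.73% of all 32851 RefSeq promoters held these letters. The share was 3.17% of the 9621 tested genes with a promoter, 5.28% of 322 genes higher pericentrally (17 genes) and 3.23% of 341 genes higher periportally (11 genes). The HNF4A letters CAAAGTCCA stood in 2.17% of the pericentral genes (7 genes) and 0.880% of the periportal genes (3 genes), against 0.603% of tested genes. A FOXA/FOXO core, TGTTTAC, was at 3.73% and 2.93% against 3.19%, and the cAMP response element TGACGTCA at 2.17% and 1.47% against 3.52%. The matches describe letters in a window and not binding.

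The 6 libraries held 20401200 to 26263800 counts, with 15145 to 15695 genes above 0. Correlations of log2 CPM (counts per gene scaled by library size, not corrected for length) were 0.964 to 0.976 within a zone and 0.941 to 0.967 between zones. The first principal component took 43.7% of the variance and parted the zones, and periportal replicate 1, at 18.3, lay nearer to the pericentral libraries (-42.1 to -27.8) than periportal replicates 2 and 3 (36.7 and 52.1). Periportal replicate 3 carried most RNA of other liver cells, and pericentral replicate 1 most Saa1, an acute-phase protein, at 3234 CPM against 11.8 to 87 CPM in the other libraries at 8 h. Genes of skin and hair split all 18 libraries into 2 sets that the labels do not name, found after the values were seen. The 6 epidermal keratins Krt5, Krt6b, Krt13, Krt15, Krt17 and Krt75 summed to 7.15 to 15.5 CPM in the 6 fed libraries and pericentral replicates 1 and 2 at 8 h, and to 0 to 0.291 CPM in the other 10 libraries. Hair keratins and keratin-associated proteins (15 genes) did the reverse, with 0 to 0.158 CPM in the first 8 libraries and 11.8 to 41.8 CPM in the other 10. At 8 h, therefore, pericentral replicate 3 shared its keratin set with the 3 periportal libraries, while pericentral replicates 1 and 2 had the other. The source of these reads was not tested. All 6 epidermal keratins were among the genes called higher pericentrally, although pericentral replicate 3 was at 0 for each.

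**Figure D1:**
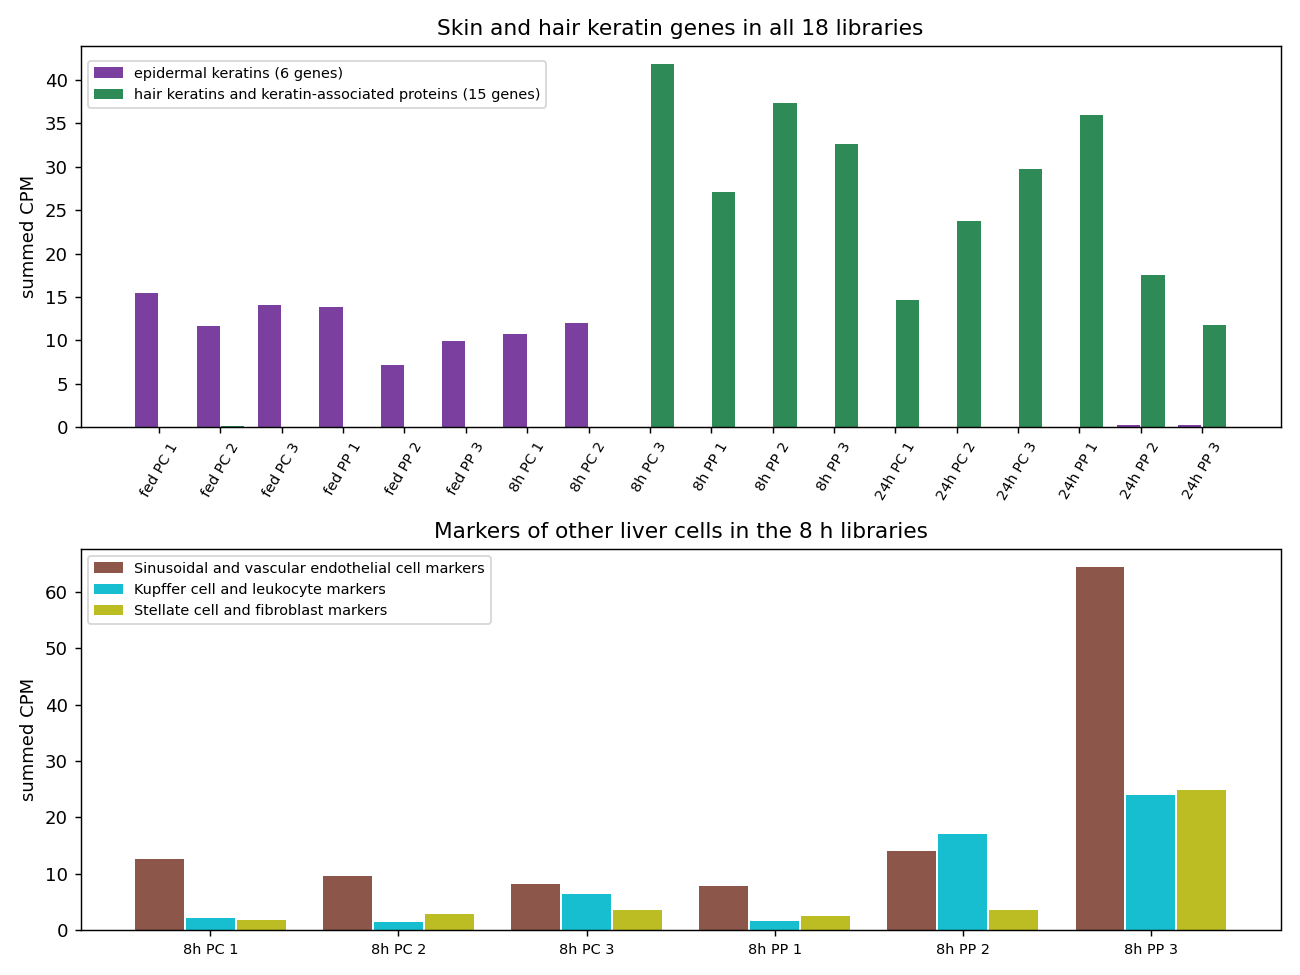
Summed CPM per library of skin and hair keratin genes in all 18 libraries (upper panel) and of marker lists for other liver cells in the 6 libraries at 8 h (lower panel); PC is pericentral and PP periportal. The upper bars change from epidermal to hair keratins between pericentral replicates 2 and 3 at 8 h, and in the lower panel the endothelial sum of periportal replicate 3 reaches 64.5 CPM.

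At 8 h, 464 genes were higher in periportal cells and 427 in pericentral cells at an adjusted p under 0.05 (edgeR quasi-likelihood test, Benjamini-Hochberg over all genes tested, as for every adjusted p here). That is 7.14% of the genes tested, 3.72% in the periportal and 3.42% in the pericentral direction. These shares are the comparison for each list below, as is the 51.0% of all tested genes with a log2 change above 0. The smallest p values belonged to Nrp2, a semaphorin and VEGF co-receptor, pericentrally (-2.18 ± 0.17, adjusted p = 3.11e-06) and Ctnnbip1 periportally. Log2 fold changes (periportal over pericentral throughout) had a median of 0.91 among the periportal and -1.02 among the pericentral genes, against 0.01 over all tested genes. Changes beyond 3 on the log2 scale numbered 53 periportally and 70 pericentrally. The 3 libraries of one zone all lay above the 3 of the other for 449 of the 464 and 415 of the 427 genes, and for 23.9% of all tested genes. Pericentral replicates 1 and 2 at 8 h were then left out, so that the remaining 4 libraries at 8 h shared one keratin set. The 24 h libraries and the fed ones, which hold the other set, stayed in this fit. Of the 891 called genes, 883 kept their sign, and the median ratio of their changes to those of the full fit was 0.993. These 4 libraries also helped to make the calls, and a gene without overlap could hardly change its sign. The kept signs and the ratio therefore do not tell whether the keratin split mattered. Calls lost with one keratin set cannot be told apart from calls lost to fewer libraries. The single pericentral library is then assumed to vary like the other groups. Without periportal replicate 3, 525 genes were called, and without replicate 1, 1144.

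**Figure D2:**
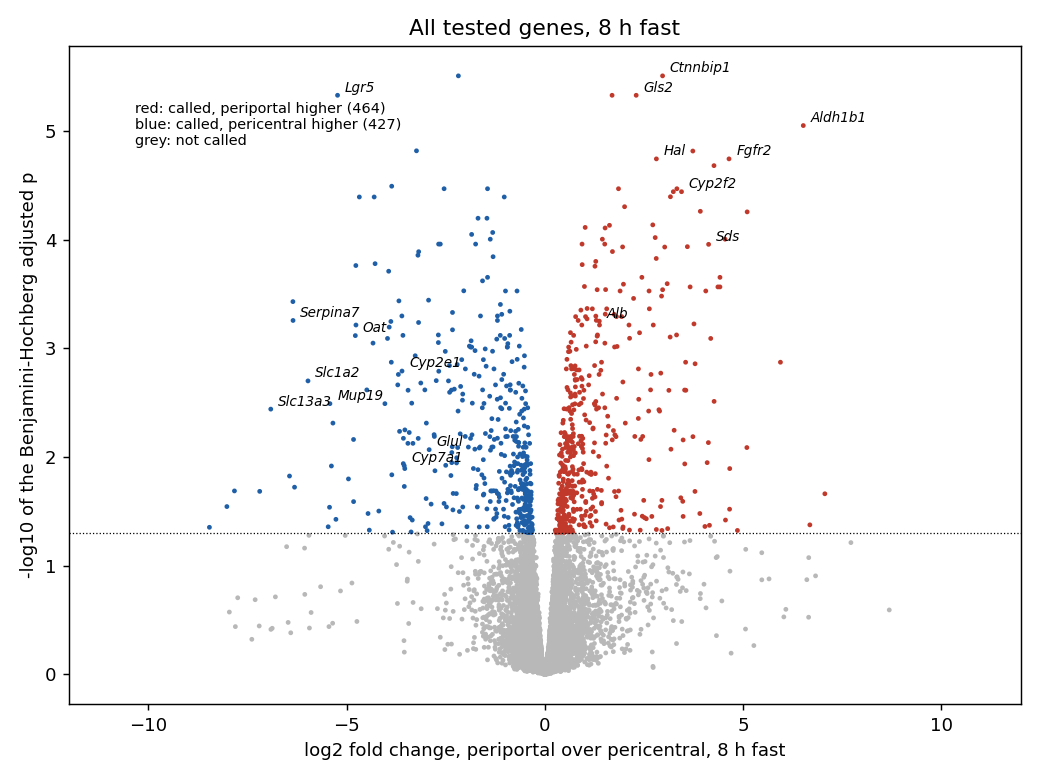
Log2 fold change (periportal over pericentral, x axis) against -log10 of the adjusted p (y axis) for the 12477 genes tested at 8 h; the dotted line marks an adjusted p of 0.05. Red points are the 464 genes higher periportally and blue points the 427 higher pericentrally, with Lgr5 and Ctnnbip1 near the top of either side.

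All 12 pericentral landmark genes tested were higher pericentrally, against 3.42% of all genes, and 9 of 12 periportal landmarks were higher periportally, against 3.72%. So the labels and the markers matched, but the lists were chosen with earlier results of these data known, which limits this as a check. Glul, glutamine synthetase, which in liver is held by the cells next to the central vein, stood at 567, 776 and 607 CPM pericentrally and 67.7, 96.7 and 93.8 CPM periportally. The groups did not overlap, and the log2 change was -2.92 ± 0.60 (SE, adjusted p = 0.00857). Cyp2e1, the ethanol-inducible cytochrome P450, was at 7611, 8641 and 8687 CPM pericentrally against 937, 766 and 351 CPM periportally. Periportal replicate 3 was lowest, and the change was -3.60 ± 0.58 (adjusted p = 0.00162). Among periportal landmarks, Cyp2f2, a P450 of portal hepatocytes, was at 2244, 2704 and 3075 CPM periportally against 189.9, 223 and 322 CPM pericentrally, again without overlap (3.45 ± 0.35, adjusted p = 3.62e-05). Cdh1, E-cadherin, was at 92.1, 91.9 and 65.1 CPM periportally and 9.71 to 14.9 CPM pericentrally, a change of 2.72 ± 0.30 (adjusted p = 7.32e-05). The 3 periportal landmarks that were not called were Arg1 (0.54, adjusted p = 0.0917), Pck1 (1.14, adjusted p = 0.17) and Cps1 (0.36, adjusted p = 0.34), and in each the lowest periportal library was replicate 1. In the 4 libraries of one keratin set, 10 of the 12 pericentral and 8 of the 12 periportal landmarks were called.

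The largest changes were ranked among called genes without overlap of the zones and with a mean of 10 CPM or more in the higher zone. The first periportally was Aldh1b1, a mitochondrial aldehyde dehydrogenase (chr4:45799022-45804604, GRCm38, protein-coding). It was at 81.5, 195 and 194 CPM periportally and at 2.58, 1.49 and 1.04 CPM pericentrally, so that every periportal library was far above every pericentral one (6.52 ± 0.50, adjusted p = 8.92e-06). Fgfr2, a fibroblast growth factor receptor (chr7:130162451-133123350), was at 58.9, 48.6 and 46.4 CPM against 1.97, 1.44 and 2.67 CPM (4.65 ± 0.41, adjusted p = 1.81e-05). Replicate 1 was the lowest periportal library for Aldh1b1 and the highest for Fgfr2. Sds, serine dehydratase, which turns serine into pyruvate, was at 222, 629 and 709.9 CPM periportally and 22.8 to 33.6 CPM pericentrally. Its periportal replicate 1 was well under replicates 2 and 3, yet above all pericentral libraries (4.13 ± 0.46, adjusted p = 0.00011). Ctsc, the lysosomal protease cathepsin C, averaged 171 ± 38.4 CPM (SD, n = 3) against 9.37 ± 5.32 CPM. Sulf2, an extracellular heparan sulfate sulfatase, averaged 38.6 ± 12.1 against 4.1 ± 1.96 CPM. Their log2 changes were 4.19 and 3.24. The steroid hydroxylase Cyp17a1 was the most uneven of the 12 largest, at 5.9, 37.4 and 20 CPM periportally against 1.59 to 3.3 CPM (3.18 ± 0.65, adjusted p = 0.00848). The others of the 12 were Cryl1, Aqp4, Olfm3, Sult5a1, Cyp2f2 and Spry4, at log2 changes of 3.32 to 4.42.

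Pericentrally, the largest change was in Slc13a3, a dicarboxylate transporter (chr2:165405028-165473230). It was at 29.2, 18.2 and 12.5 CPM pericentrally and 0.0404, 0.445 and 0 CPM periportally, near the lower limit of detection (-6.91 ± 1.24, adjusted p = 0.00363). Serpina7, thyroxine-binding globulin (chrX:139079257-139085236), was at 63.1, 7.07 and 15.9 CPM pericentrally and 0.186 to 0.606 CPM periportally. Pericentral replicate 1 held most of it, and the change was -6.35 ± 0.87 (adjusted p = 0.000554). Lhpp, a phosphatase that can remove phosphate from histidine, was even across replicates, at 40.7, 48.6 and 47.1 CPM against 1.82, 2.27 and 0.885 CPM (-4.77 ± 0.56, adjusted p = 0.000173). It lies near Oat on chromosome 7, at chr7:132610638-132706420 against chr7:132557478-132576398. Nxpe2 (-4.28), Susd4 (-3.97), a complement regulator, and Cyp2c38 (-4.03) were also among the 12 largest. The remaining places were held by Slc1a2, Oat and 4 major urinary protein genes.

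**Figure D3:**
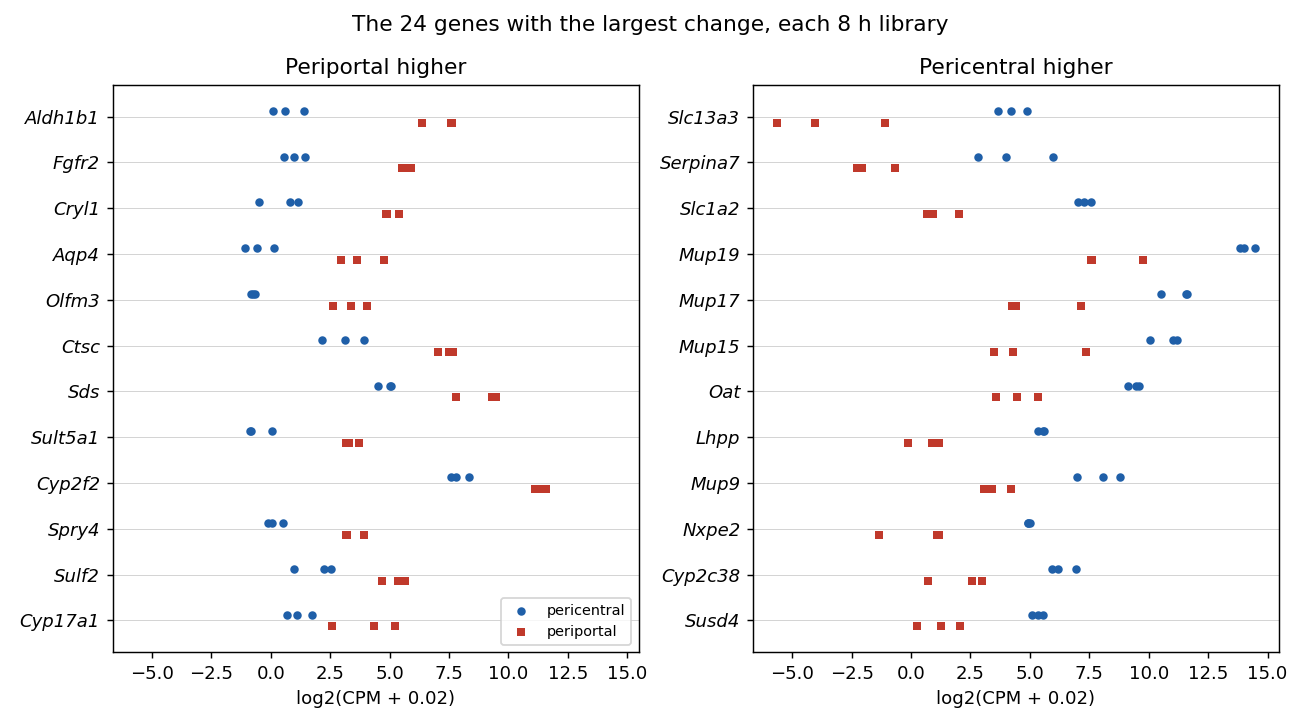
Level in each of the 6 libraries at 8 h, as log2(CPM + 0.02), of the 12 genes with the largest change in each direction, chosen among called genes without overlap; circles are pericentral and squares periportal libraries. The fitted change is largest for Aldh1b1 (6.52) on the periportal and Slc13a3 (-6.91) on the pericentral side, and Slc13a3 lies at the floor in periportal replicate 3.

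The major urinary proteins are pheromone carriers that the male liver secretes, and their genes are near-identical copies, so reads could be split among them and values for one copy are uncertain. Of 20 tested, 5 were higher pericentrally and 2 periportally, against 3.42% and 3.72% of all genes. Mup19 was at 16607, 22681 and 14569 CPM pericentrally and at 192, 869 and 197 CPM periportally (-5.42 ± 0.95, adjusted p = 0.00323). Mup17 and Mup15 were also higher pericentrally, with periportal replicate 2 highest among the periportal ones at 143 and 164 CPM. Mup20, which codes for the pheromone darcin, went the other way, at 8442, 7686 and 14295 CPM periportally against 2517 to 3490 CPM pericentrally (1.80 ± 0.45, adjusted p = 0.0232). Mup3 was at 9333, 8102 and 9532 CPM against 3852 to 5053 CPM (1.04 ± 0.21, adjusted p = 0.00457). In the libraries of one keratin set only Mup19 and Mup13 were called.

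Nitrogen metabolism was divided by step. All 4 tested genes of glutamine synthesis and its supply were higher pericentrally. Slc1a2, which takes up glutamate, was at 129, 189.9 and 154 CPM pericentrally against 1.57, 4.09 and 1.86 CPM periportally. The zones were far apart (-5.97 ± 0.97, adjusted p = 0.002). Oat, ornithine aminotransferase, which makes glutamate from ornithine, was at 561, 772 and 716 CPM against 22, 40.5 and 12.1 CPM (-4.78 ± 0.68, adjusted p = 0.000764). Slc1a4, a neutral amino acid transporter, changed by -2.69, and Glul, described above, by -2.92. Among 11 genes of the urea cycle and its ammonia supply, 4 were higher periportally and 1 pericentrally, against 3.72% and 3.42% of all genes. Gls2, the liver glutaminase that releases ammonia from glutamine, was at 425, 585 and 595 CPM periportally and 96.3, 119 and 109.9 CPM pericentrally (2.31 ± 0.20, adjusted p = 4.7e-06). Periportal replicate 1 was again the lowest of its zone. Asl, argininosuccinate lyase (0.96), Ass1, argininosuccinate synthase (0.86), and Otc, ornithine transcarbamylase (0.61), were higher periportally by less. Car5a, the mitochondrial carbonic anhydrase that supplies bicarbonate, was lower periportally (-0.56 ± 0.13, adjusted p = 0.00991), with 51.6 to 55.4 CPM against 69.3 to 85.2 CPM. Without periportal replicate 1, 6 of the 11 were called periportally, and with one keratin set only Gls2 was called.

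Of 40 tested genes of amino acid breakdown, 8 were higher periportally and 1 pericentrally, against 3.72% and 3.42% of all genes. The median log2 change of the 40 was 0.14. Histidine breakdown had 4 of the 8: Hal, Uroc1 (urocanate hydratase), Amdhd1 and Ftcd, which follow each other in the pathway. Hal (chr10:93488768-93519304) was at 799, 1024 and 1033 CPM periportally and 157, 116 and 133 CPM pericentrally (2.81 ± 0.27, adjusted p = 1.81e-05). Uroc1 was at 715, 779.5 and 706 CPM against 251, 215 and 213 CPM (1.70 ± 0.14, adjusted p = 4.7e-06). Amdhd1 averaged 255 ± 47.1 against 101 ± 27.8 CPM, and Ftcd 443 ± 15.2 against 155 ± 12.3 CPM (SD, n = 3). None of the 4 overlapped between zones, and all 4 were also called with one keratin set. Sds and Sdsl, which act on serine and threonine, changed by 4.13 and 2.95, and Gldc of the glycine cleavage system by 1.86. Aldh4a1, of proline breakdown, was lower periportally (-0.45). In the methionine cycle, transsulfuration and choline oxidation, 0 of 16 genes were called, and 3 were called periportally when periportal replicate 1 was left out.

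Among 16 genes of gluconeogenesis and glucose output, 8 were higher periportally and 0 pericentrally, against 3.72% and 3.42% of all genes. The median change of the 16 was 0.70. G6pc, the last step to free glucose, was at 746, 1347 and 1568 CPM periportally and 266, 530.3 and 443 CPM pericentrally. Periportal replicate 1 was above every pericentral library, but close to the highest (1.56 ± 0.35, adjusted p = 0.0121). Fbp1, fructose-1,6-bisphosphatase, was the evenest, at 1306, 1448 and 1356 CPM against 659, 718 and 651 CPM (1.02 ± 0.12, adjusted p = 7.72e-05). Slc2a2, the glucose transporter GLUT2, was at 375, 473 and 513 CPM against 147, 221 and 258 CPM (1.12 ± 0.20, adjusted p = 0.00179). Pcx, pyruvate carboxylase (1.43), Slc37a4, the glucose-6-phosphate transporter (0.94), Tkfc (0.75), Eno1 (0.66) and Mdh1 (0.56) completed the 8. Pck1, the cytosolic phosphoenolpyruvate carboxykinase, was at 2565, 6062 and 5359 CPM periportally and 2200, 2331 and 1827 CPM pericentrally. All periportal libraries were higher, but replicate 1 lay near the pericentral ones and the gene was not called. Pck1 averaged a log2 change of 2.87 in the fed mice, 1.14 at 8 h and 0.30 at 24 h. Without periportal replicate 3, 4 of the 16 were called, and with one keratin set only Fbp1.

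In fructose use, Khk, ketohexokinase, was called higher periportally, at 154, 259.9 and 228 CPM against 78.1, 106 and 91.6 CPM (1.22 ± 0.24, adjusted p = 0.00542). Of 12 genes of glycolysis and fructose use 3 were called higher periportally, Gapdh (0.55) among them, against 3.72% of all genes. The zone change of Khk was 0.20 in fed and 0.90 in 24 h fasted cells (unadjusted p of the difference between 8 h and fed = 0.00819, not past the adjusted threshold). Of 22 genes of glucagon, insulin and cAMP signalling, only Igf1, the hormone that growth hormone induces in liver, was called (1.07 ± 0.15, adjusted p = 0.00043), at 471, 598 and 679.6 CPM periportally against 265, 241 and 328 CPM. For 12 genes of glycogen metabolism, 14 of lipogenesis and 24 of cholesterol synthesis and uptake, 0 were called, with medians of 0.15, 0.28 and 0.01. Over all alternatives, glycogen had up to 1 call in either direction and lipogenesis up to 2, all periportal. With one keratin set 0 genes of glycolysis and fructose use were called, and Igf1 was not called either (0.82, adjusted p = 0.0745).

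Fatty acid oxidation and ketogenesis had 28 tested genes, of which 0 were higher periportally and 2 pericentrally (3.42% of all genes were), with a median of -0.06 and 11 above 0. Among them Eci2, an enoyl-CoA isomerase, changed by -0.69 ± 0.19 (adjusted p = 0.0402). The count was 0 without periportal replicate 2 or 3 or pericentral replicate 3, while 5 genes of the list were called pericentrally without replicate 1, and with one keratin set 1 was. Apolipoproteins and lipoprotein assembly had 6 of 18 higher periportally, against 3.72% of all genes, and 0 pericentrally. Apoc2, which activates lipoprotein lipase, was at 124, 165 and 154 CPM against 62.5, 58.1 and 63.5 CPM (1.27 ± 0.17, adjusted p = 0.000176). Apoa4 was at 302, 1330 and 1648 CPM against 129, 132 and 244 CPM, with periportal replicate 1 well under the other two (2.70 ± 0.71, adjusted p = 0.0352). Apoc3 (0.94), Apoa5 (0.70), Mttp, which loads lipid onto nascent lipoproteins (0.55), and Scarb1, the HDL receptor (0.40), were also called. Only Apoc2 and Scarb1 were called with one keratin set, and 2 of the 18 without periportal replicate 3.

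Bile acid genes divided between zones, with 6 of 22 higher pericentrally and 3 periportally, against 3.42% and 3.72% of all genes. Cyp7a1, the rate-limiting enzyme of the classic pathway, was at 210.2, 370.1 and 179.7 CPM pericentrally and 23.3, 26.4 and 15.3 CPM periportally (-3.55 ± 0.76, adjusted p = 0.012). Hsd3b7 (-1.04), the next step, Cyp27a1 of the alternative pathway (-1.01) and Akr1c6, a hydroxysteroid dehydrogenase (-2.04), were lower periportally as well. Slco1b2, a bile acid and drug uptake carrier, was at 963, 1187 and 1181 CPM against 478, 456 and 406 CPM (-1.31 ± 0.16, adjusted p = 8.59e-05), and Abcc2, a canalicular export pump, changed by -0.55. Of these 6, 4 were called with one keratin set, without Cyp7a1 and Hsd3b7. The 3 periportal genes were Abcb11, the bile salt export pump (0.62 ± 0.16, adjusted p = 0.0214), Klb, the FGF co-receptor (0.59 ± 0.14, adjusted p = 0.0164), and Slc27a5, a bile acid-CoA ligase (0.49 ± 0.12, adjusted p = 0.0205). In fed cells these 3 changed by 0.18, 0.15 and 0.04, and at 24 h by 0.15, 0.04 and 0.02. No adjusted test of the difference between states passed for them. The periportal count was 0 without periportal replicate 2, without pericentral replicate 1 and with one keratin set, and 1 without periportal replicate 3 or pericentral replicate 2.

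Of 54 cytochrome P450 genes of families 1 to 4, 14 were higher pericentrally and 4 periportally, against 3.42% and 3.72% of all genes. Cyp2c genes, which are close relatives, made up 9 of the 14. Cyp2c29 was at 2338, 2634 and 2721 CPM pericentrally against 343, 300.0 and 124 CPM periportally (-3.33 ± 0.67, adjusted p = 0.00749), and Cyp2c37 averaged 465 ± 163 against 48.2 ± 6.85 CPM. Cyp1a2, which acts on caffeine, was at 566, 782 and 756 CPM against 65.7, 65.4 and 31.3 CPM (-3.69 ± 0.59, adjusted p = 0.00174). Zones did not overlap for these 3. The 4 periportal P450 genes were Cyp2f2, Cyp2a12 (1.46), Cyp2d26 (1.0) and Cyp4v3 (0.50). Among receptors and partners, 3 of 12 were lower periportally: Ahr, the dioxin receptor, at 80.5, 60.9 and 42.8 CPM pericentrally against 8.64 to 11.3 CPM (-2.67 ± 0.43, adjusted p = 0.00163), Nr1i3, the receptor CAR (-1.08), and Cyb5a, cytochrome b5 (-0.72). Heme, the cofactor of these enzymes, had 4 of 12 pathway genes lower periportally and 0 higher, against 3.42% and 3.72% of all genes. They included Alad (-0.70) and Cpox (-0.83) of synthesis and Blvrb of breakdown (-1.68). With one keratin set the calls were 11 of the 14 pericentral P450 genes (not Cyp2c29, adjusted p = 0.0753), 2 of the 4 periportal ones, 0 of the 3 receptors and partners, and Alad, Cpox and Blvrb among the heme genes.

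Among 242 solute carriers tested, 26 (10.7%) were higher pericentrally and 17 (7.02%) periportally, against 3.42% and 3.72% of all genes. Monocarboxylate carriers stood at both ends. Slc16a13 was at 3.07, 4.23 and 5.22 CPM pericentrally and 0.0445 to 0.323 CPM periportally (-4.68 ± 0.51, adjusted p = 4.05e-05). Slc16a11 changed by -2.68, Slc16a10, an aromatic amino acid carrier, by -1.85, and Slc16a12 by -0.88, while Slc16a6 was higher periportally, at 9.78 to 10.6 CPM against 1.4 to 4.01 CPM (1.94 ± 0.29, adjusted p = 0.000511). Periportal cells held more Slc40a1, the iron exporter ferroportin (1.23), Slc30a10, a manganese exporter (1.13), and Slc25a47, a liver mitochondrial carrier (1.30). With one keratin set the calls fell to 9 pericentral and 5 periportal, the 5 monocarboxylate carriers and Slc25a47 among them, while Slc40a1 was at 0.51 (adjusted p = 0.316) and Slc30a10 at 1.14 (adjusted p = 0.158). Without periportal replicate 3 they were 19 and 8, and without replicate 2, 18 and 9.

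Of 23 tested genes of the Wnt pathway, 8 were higher pericentrally and 4 periportally, against 3.42% and 3.72% of all genes. Pericentral calls included a receptor and several feedback genes. Lgr5, the R-spondin receptor, was at 11.7, 9.07 and 7.62 CPM against 0.283, 0.178 and 0.28 CPM (-5.23 ± 0.45, adjusted p = 4.7e-06). Axin2, a scaffold that degrades beta-catenin and is induced by Wnt, was at 10.4, 15.3 and 14.1 CPM against 2.38, 1.38 and 0.559 CPM (-3.18 ± 0.47, adjusted p = 0.000579). In both, all pericentral libraries were above all periportal ones. Sp5 was at 1.72, 1.3 and 1.78 CPM pericentrally, and 1 count in all was found periportally, in replicate 1 (adjusted p = 0.000372). Tbx3, a transcription factor, changed by -3.45, Notum, which inactivates Wnt ligands, by -2.0, and Rnf43, which removes Frizzled receptors, by -1.55. Tcf7 and Tnfrsf19 changed by -2.08 and -2.99. The 4 periportal genes included Ctnnbip1, which blocks beta-catenin from binding TCF factors, at 24.6, 28.4 and 25.3 CPM periportally against 3.44, 3.12 and 3.4 CPM (2.97 ± 0.23, adjusted p = 3.11e-06). Replicates differed little within either zone. Tcf7l1, mostly a repressor of Wnt targets, was at 10.7, 6.94 and 8.95 CPM against 1.19 to 1.39 CPM (2.79 ± 0.34, adjusted p = 9.57e-05), and Lrp6, a Wnt co-receptor (0.44), and Apc (0.40) changed by less. With one keratin set 5 genes were called pericentrally, and Ctnnbip1 and Tcf7l1 periportally.

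In the list of growth factor receptors and Ras or Notch signalling, 4 of 17 were higher periportally and 1 pericentrally. The shares of all genes were 3.72% and 3.42%. Beside Fgfr2, the periportal genes included Spry4 and Spred1, feedback inhibitors of receptor signalling to Ras. Spry4 was at 8.84, 15.1 and 9.32 CPM against 1.39, 1.02 and 0.889 CPM (3.32 ± 0.50, adjusted p = 0.000754), and Spred1 at 18.8, 13.1 and 13.6 CPM against 6.65 to 8.89 CPM (0.93 ± 0.22, adjusted p = 0.0171). Their changes were 1.55 and 0.03 in fed and 1.66 and 0.36 in 24 h fasted cells. Sox9, a factor of bile duct cells and portal hepatocytes, changed by 0.98 and Notch1 by -0.71. Fgfr2 was the only call of this list with one keratin set, where Spry4 missed the threshold (3.62, adjusted p = 0.0558). Of 14 oxygen-sensing and hypoxia genes, Ndrg1 and Egln3 were called higher pericentrally and 0 periportally, against 3.42% and 3.72% of all genes. The median log2 change of the 14 was 0.12, and 10 were above 0, against 51.0% of all genes. Ndrg1, which hypoxia induces, was at 14, 15.6 and 12.6 CPM pericentrally and 5.09, 2.67 and 3.96 CPM periportally (-1.84 ± 0.30, adjusted p = 0.000974). Its change was -0.20 in fed and -0.09 in 24 h fasted cells, and the unadjusted p of the difference from 8 h was 0.00158 and 0.000802. Neither passed after adjustment.

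Transcripts of mitochondrial respiration genes leaned to the periportal side by small amounts. All 13 genes encoded in mitochondrial DNA had log2 changes above 0, with a median of 0.45. Of these, 4 were called higher periportally, against 3.72% of all genes, and 9 had no overlap of the zones, against 12.1% of all genes. The 13 summed to 7.94% to 10.6% of scaled counts periportally and 6.45% to 7.69% pericentrally. Nuclear subunits of oxidative phosphorylation had 10 of 78 higher periportally and 0 pericentrally, against 3.72% and 3.42% of all genes. The 78 had a median of 0.24, and 71 were above 0, against 51.0% of all genes. Uqcrc1 of complex III was at 104, 111 and 108 CPM against 73.5, 91.8 and 77 CPM (0.41 ± 0.08, adjusted p = 0.00598). Without periportal replicate 3, 0 of the 13 and 3 of the 78 were called, without replicate 1, 8 and 17, and with one keratin set 0 and 1. Proteasome subunits had 10 of 39 higher pericentrally and 0 periportally, against 3.42% and 3.72% of all genes. The median of the 39 was -0.20, with 2 above 0. Psmd14, which removes ubiquitin, was at 37.9, 38.6 and 36.4 CPM pericentrally and 25.1, 29.2 and 24.4 CPM periportally (-0.52 ± 0.09, adjusted p = 0.00149). The 10 changes lay between -0.54 and -0.32, and 4 were called without periportal replicate 3 and 0 with one keratin set. Cytosolic ribosomal proteins had 1 call among 91.

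**Figure D4:**
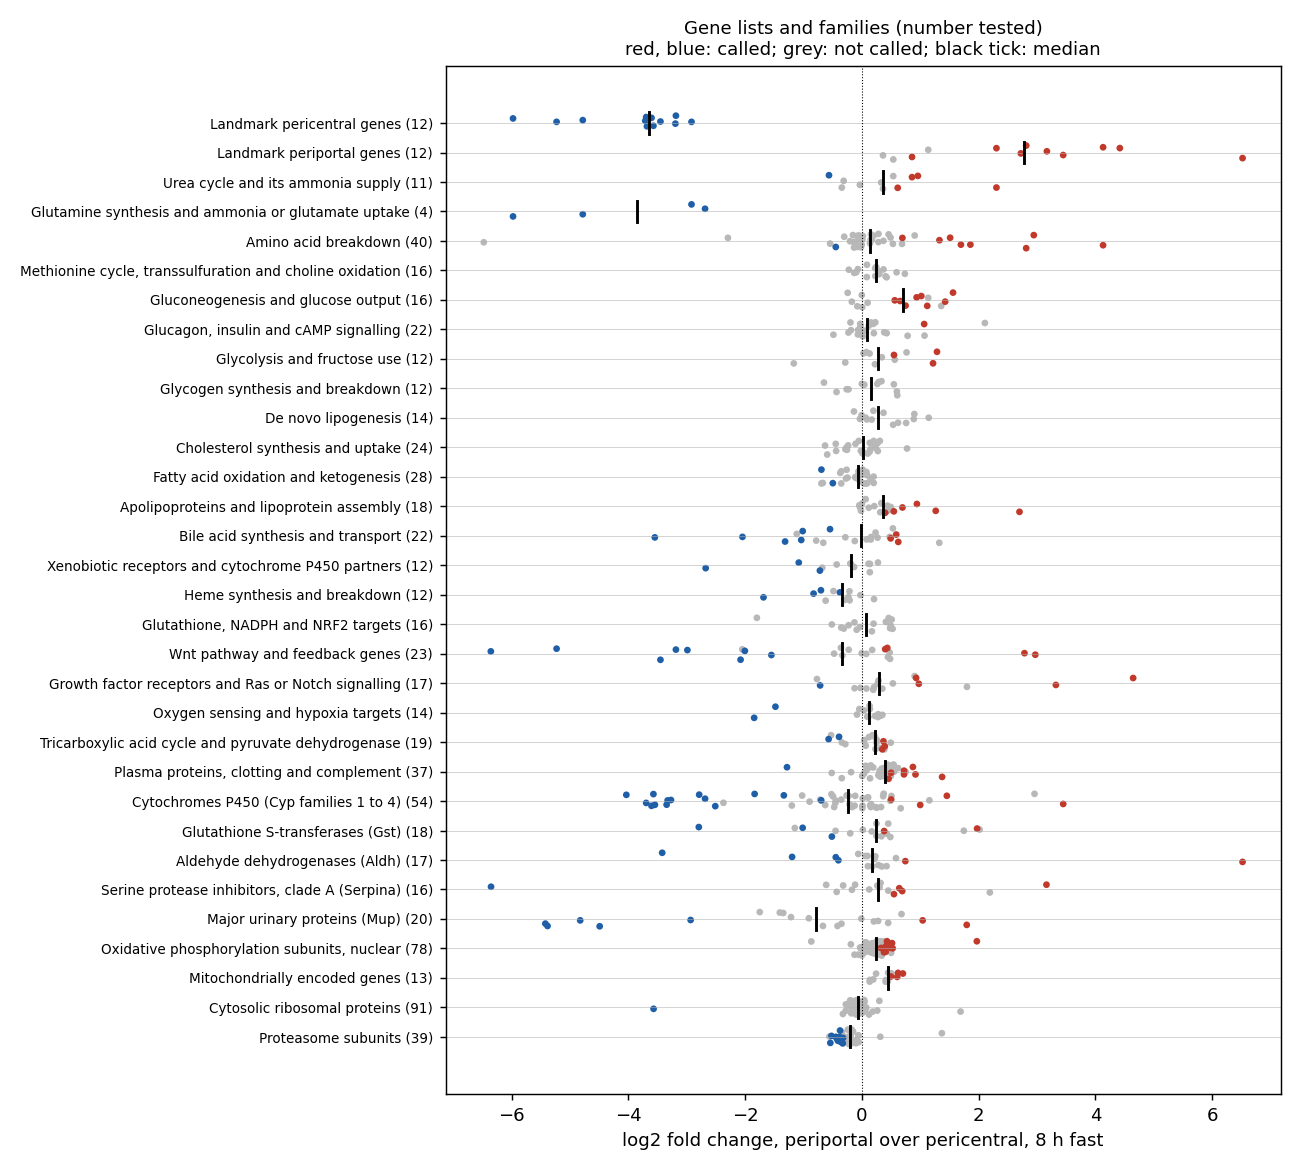
Log2 fold change (periportal over pericentral, 8 h) of each tested member of the gene lists and families; red and blue points were called, grey points were not, and the black tick is the median. Medians lie farthest from 0 for glutamine synthesis and uptake (-3.85) and the pericentral landmarks (-3.64), while oxidative phosphorylation and proteasome subunits form narrow bands on opposite sides of it.

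Of 37 plasma protein genes, 7 were higher periportally and 1 pericentrally, against 3.72% and 3.42% of all genes. Changes above 0 were found for 33 of the 37, against 51.0% of all genes. Alb, albumin, took 93000, 146784 and 133271 CPM periportally, which is 9.30% to 14.7% of scaled counts. Pericentrally it took 40028, 49520 and 54295 CPM, or 4.00% to 5.43%, so the zones did not overlap (1.37 ± 0.21, adjusted p = 0.000562). The clotting factors F7 (0.92), F9 (0.72), F10 (0.72) and F12 (0.46), the inhibitor antithrombin, Serpinc1 (0.50), and complement factor I, Cfi (0.87), were the others. C6, of the terminal complement complex, was at 299.7, 378 and 254 CPM pericentrally against 135, 149.6 and 99.3 CPM (-1.28 ± 0.35, adjusted p = 0.0369). Leaving out periportal replicate 3 reduced the calls to 4 periportal and 0 pericentral, and only F7 was called with one keratin set. Immediate early and heat shock genes, which cell isolation can induce, had 2 of 19 higher periportally (Ier2 1.03, Zfp36 1.03) and 1 pericentrally (Hspb1 -1.51). The shares of all genes were 3.72% and 3.42%. These 19 genes summed to 1197 to 2023 CPM periportally against 1107 to 1331 CPM. Their part in the zone differences was not tested.

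Markers of other liver cells were low in most libraries. The 13 tested endothelial markers summed to 7.71, 13.9 and 64.5 CPM in periportal replicates 1, 2 and 3 and to 8.08 to 12.7 CPM pericentrally. Kupffer cell and leukocyte markers (13 tested) summed to 1.53, 17 and 24 CPM and to 1.40 to 6.30 CPM. The 6 stellate cell and fibroblast markers summed to 2.46, 3.56 and 24.9 CPM and to 1.80 to 3.48 CPM. Periportal replicate 3 was highest in each list. Kdr and Ptprb among endothelial and Rgs5 among stellate markers were called higher periportally, and none of these without periportal replicate 3, where the list medians went from 2.99 to 1.20 and from 2.56 to 0.11. Without periportal replicate 1, 9 of the 13 endothelial markers were called. Their part in the zone differences was not tested. No count was found at 8 h for Nkg7, Acta2 or Epcam, markers of lymphocytes, myofibroblasts and bile duct cells. Of 5 cholangiocyte markers tested, Sox9 and Spp1 were called higher periportally, against 3.72% of all genes. In cells pooled in this way, fewer cells of a type and less RNA per cell cannot be told apart.

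The zone difference itself was then compared between states. Of the 891 genes called at 8 h, 557 (62.5%) were also called in fed cells, which is 55.7% of the 1000 called there (8.01% of genes tested, 3.89% periportally). At 24 h, 345 (38.7%) were called, 66.3% of the 520 called there (4.17% of genes tested, 2.47% pericentrally). The direction was the same for 875 of the 891 in fed and for 844 in 24 h fasted cells, and 294 were called at 8 h alone, which does not show that they differed. In tests of the difference, 0 genes passed between 8 h and fed (680 at an unadjusted p under 0.05, 6 by DESeq2, 0 by limma-voom) and 0 between 24 h and 8 h (746, 3 and 0). Among genes with a mean of 10 CPM or more in at least 1 group, the smallest p values belonged to Prpf4b, a splicing kinase, and Ajuba, an adaptor of cell junctions, for 8 h against fed, and to Dhrs7, a retinoid and steroid reductase, and Itgb5, an integrin, for 24 h against 8 h. Dhrs7 was at 48.7, 62.2 and 63.3 CPM periportally and 35.1 to 38.2 CPM pericentrally at 8 h (0.65 ± 0.13, adjusted p = 0.0045), with changes of 0.09 in fed and -0.16 at 24 h. Prpf4b changed by -0.57 in fed and 0.25 at 8 h.

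One library of the 24 h group stood apart. Pericentral replicate 2 held 8.82 CPM of Slc1a2 against 241 and 256 CPM in pericentral replicates 1 and 3, and 257 CPM of Oat against 1055 and 1158 CPM. Its level of Cyp2f2 was 793 CPM against 345 and 322 CPM, nearer to the periportal libraries than theirs. The periportal landmarks had smaller zone differences at 24 h than at 8 h, with a median difference of -1.0 on the log2 scale over the 12. The unadjusted p was under 0.05 for 7 of them, all with the smaller difference at 24 h, against 5.98% of all tested genes, but 0 passed after adjustment (lowest adjusted p = 0.711). Gls2 changed by 1.34 at 24 h against 2.31 at 8 h, and Cyp2f2 by 1.86 against 3.45. For pericentral landmarks the count was 1 of 12, Lgr5, with -3.29 against -5.23. Without pericentral replicate 2 of the 24 h group the median difference was -0.75 and 5 of the periportal landmarks were under 0.05, and with one keratin set 3. Without that library 457 genes were called at 24 h, 336 of them also called at 8 h. Between 8 h and fed, the counts were 2 periportal landmarks and 0 pericentral ones.

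**Figure D5:**
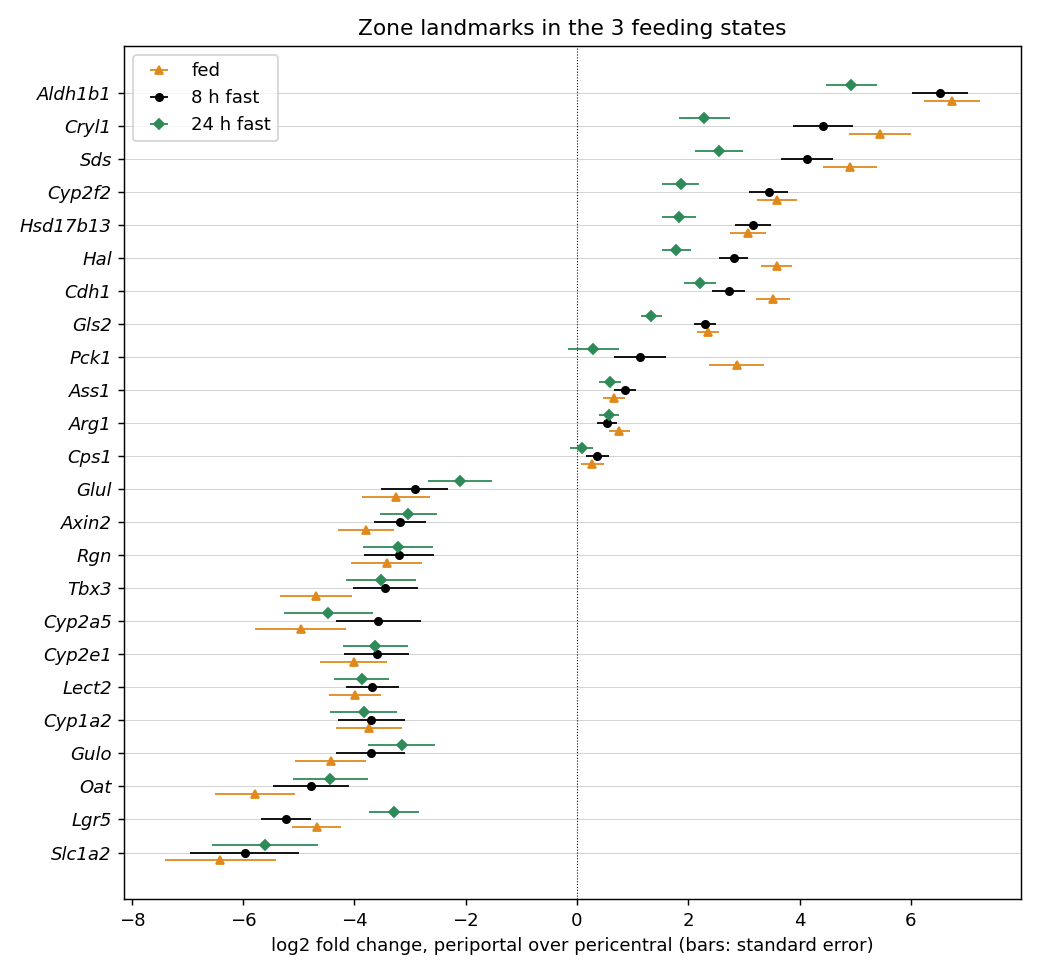
Log2 fold change (periportal over pericentral) with its approximate standard error, derived from the F statistic, for 24 landmark genes in fed, 8 h fasted and 24 h fasted mice, 3 libraries per zone and state. Signs are the same in all 3 states, and Cps1 (0.09) and Pck1 (0.30) lie nearest to 0 at 24 h.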

How the data were processed

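RNA-seq was deposited as one table of estimated counts per Ensembl gene for 18 libraries; reads were quantified with kallisto 0.46.0 on mm10, per the submitters' processing notes, and libraries were made with an NEBNext Ultra kit, per the labels' protocols. Whether counting used strand is not given in the sources used here. Estimated counts were rounded to whole numbers. All 6 groups of 3 were fitted together with edgeR 4.0.16 (R 4.3.3): filterByExpr, TMM scaling, robust dispersion and quasi-likelihood tests, with genes called at a Benjamini-Hochberg adjusted p under 0.05. CPM use the TMM-scaled library sizes and are not corrected for length, so levels are compared only within a gene. On simulated data for this comparison (12477 genes), 85% of 100 genes changed by 1 on the log2 scale and 98% of 100 changed by 2 were called. Among unchanged genes, 7 were called. The changed genes were drawn only above a minimum mean CPM, so the shares do not cover genes at low levels. Counts were drawn with the fitted spread, and no keratin split or outlying library was put in. Genes named were the 12 with the largest change in each direction among called genes with no overlap, no predicted or clone name and 10 CPM or more on average in the higher zone, the 8 largest above 500 CPM, the 2 with the smallest p in each test between states among genes with a mean of 10 CPM or more in a group, the landmarks, and up to 4 called members a list by adjusted p; other genes were named after their values were seen. The comparison and the lists were chosen with earlier results of these data known. Symbols came from GENCODE M21 (27566 of 28030 IDs matched), promoters from RefSeq. Replicate pairs of a zone differed by far more than sampling noise. Deviations from the group mean were correlated between libraries of the 2 zones with the same number. The correlations were -0.008 to 0.0705 at 8 h and -0.0112 to 0.00674 in fed mice. At 24 h all 3 pairs were over 0.1 (0.121 to 0.165). Whether libraries with the same number came from one mouse was not tested. Alternatives were DESeq2 1.42.0, limma-voom (limma 3.58.1), other scalings and filters, a replicate block, only the groups compared, each library left out, and, chosen after seeing the data, one keratin set. Some genes counted in the lists are not reported here by name.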

Additional observations from a re-analysis of the deposited data

Results flagged for a closer look

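The zone difference of Ajuba pointed in opposite directions in fed and 8 h fasted cells, with no overlap of the zones in either. At 8 h the pericentral libraries were at 9.5, 7.25 and 7.89 CPM and the periportal ones at 7.19, 6.36 and 5.54 CPM. The zone log2 change was 0.76 in fed and -0.37 at 8 h, and that at 8 h was not called (adjusted p = 0.301, edgeR). The difference between states was -1.13 (unadjusted p = 0.000749, edgeR), and it did not pass after adjustment over all genes. Itgb5 did the same between 8 h (0.72) and 24 h (-0.28), a difference of -1.002 (unadjusted p = 0.000413), which did not pass either. Its zone change at 24 h was not called (adjusted p = 0.414, edgeR). Among all tested genes, 43 had separate zones in opposite directions at 8 h and in fed cells and 36 at 8 h and 24 h, against 1390 and 1066 in the same direction.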

How the results depend on the processing

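The 891 genes called at 8 h became 450 with only the groups compared (92.7% of them among the 891), 444 with a replicate block as well, and 246 with one keratin set, where fewer libraries were fitted. With a replicate block in the full fit there were 959, with DESeq2 1275, and other scalings, filters and limma-voom gave 751 to 897. Leaving out each library in turn gave 525 to 1144, the lowest without periportal replicate 3 (569 without replicate 2) and the highest without replicate 1; the periportal share stayed between 48.5% and 55.9% except with one keratin set (38.6%). For the zone difference between 8 h and fed, the count of 0 became 1 (Angptl4) with only the groups compared and a replicate block, 6 with DESeq2, and 0 to 3 on leaving out a library, the 3 without pericentral replicate 3 being Krt15, Krt17 and Krt75. At 24 h, where libraries with the same number had correlated deviations, a replicate block gave 516 calls against 520 in the full fit. With only the 24 h groups it gave 380 against 388. The test between 24 h and 8 h stayed at 0 with either block. That count became 3 with DESeq2 and 0 to 2 on leaving out a library. Of 221 called genes followed, 58 were called under all 28 alternatives, 163 lost the call under at least 1, and 0 reversed. All alternatives reuse these libraries, so a gene without overlap of the zones could hardly reverse. The cause of the changes in calls was not tested. Depth limits genes at 0 or a few counts in a zone, such as Sp5 and Slc13a3, whose fold changes are loosely set. Arms of 3 libraries limit small changes most.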

Other observations

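Conjugating enzymes did not share one direction. Ugt1a9, a glucuronosyltransferase, was at 292, 393 and 671 CPM periportally and 79.7, 75.1 and 132 CPM pericentrally (2.24 ± 0.30, adjusted p = 0.000348), while Ugt1a10 was lower periportally (-1.53). Both share exons at one locus, so reads could be split between them. Gstm2, a glutathione transferase, was at 52.4, 64.4 and 73.9 CPM pericentrally against 7.11 to 11.5 CPM (-2.79 ± 0.54, adjusted p = 0.00623), and Gsta2 was higher periportally, with 212 CPM in replicate 3 and 85 and 55.5 CPM in replicates 1 and 2 (1.97). Aldh3a2, which oxidizes fatty aldehydes, was at 283, 409 and 567 CPM pericentrally and 74.7, 29.6 and 13.2 CPM periportally (-3.42 ± 0.66, adjusted p = 0.00595), opposite to Aldh1b1. Serpina12, the adipokine vaspin, was at 40.8 to 46.6 CPM periportally and 2.78 to 6.19 CPM pericentrally (3.16 ± 0.46, adjusted p = 0.000788). With one keratin set Aldh3a2 and Serpina12 were called, Ugt1a9 (adjusted p = 0.0567) and Gstm2 (adjusted p = 0.0558) were not, and Gsta2 was at 1.16 (adjusted p = 0.581).

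In the citric acid cycle, Sucla2 (0.37), Ogdh (0.39) and Idh3g (0.35) were higher periportally, and Idh1 (-0.39), which is cytosolic, and Dlat of pyruvate dehydrogenase (-0.57) pericentrally, among 19 genes. That is 3 and 2 of the 19, against 3.72% and 3.42% of all genes. Of 19 clock genes only Bhlhe40, a transcriptional repressor, was called, at 89.1, 128 and 82.3 CPM periportally against 25.4, 56.6 and 41.7 CPM (1.28 ± 0.33, adjusted p = 0.0318). Its zone change was 0.10 in fed cells and 0.29 at 24 h, and it was not called with one keratin set (1.25, adjusted p = 0.255). No call was made among 16 glutathione and NRF2 genes, 6 erythroid and platelet markers or 2 mesothelial markers tested.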
